A study of Mus musculus with 9 samples.

Results

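The genes described are 10 cytochrome P450 genes of the mouse liver, taken by symbol from the deposited table of 55253 gene symbols: 2 of the Cyp1a subfamily (Cyp1a1 and Cyp1a2), 3 of Cyp2a (Cyp2a5, Cyp2a12 and Cyp2a22) and 5 of Cyp2d (Cyp2d9, Cyp2d10, Cyp2d22, Cyp2d26 and Cyp2d40). All 10 symbols were found. Expression was measured by 3′ mRNA sequencing of whole liver RNA in 9 libraries from male C57Bl/6J mice. The mice of 5 libraries (WD+alcohol 1 to 5) were given a Western diet with 10% alcohol in sweetened water for 23 weeks. This diet is used to produce fatty liver in rodents, and feeding began at the age of 10 weeks. The mice of 4 control libraries (control 1 to 4) were kept on chow and tap water, and the labels give no starting age for them. No allele or transgene is named for either group. The diet, the alcohol and the sweetened water came as 1 regimen, and their separate effects cannot be told apart.

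Cytochrome P450 enzymes are haem proteins of the endoplasmic reticulum that oxidise drugs, steroids and other lipophilic compounds, with electrons passed on by P450 oxidoreductase. Cyp1a genes are the classical targets of the aryl hydrocarbon receptor, and Cyp1a2 is in addition a constitutive gene of hepatocytes near the central vein. Cyp2a5 hydroxylates coumarin and nicotine. The mouse Cyp2d genes form a large cluster of close copies whose human counterpart is the single drug-metabolising gene CYP2D6, and Cyp2d9, a testosterone hydroxylase, is a male-biased gene under control of the growth hormone pattern.

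Reads in genes ranged from 3635860 to 6643645 per library, and 1 read was worth 0.152 to 0.270 CPM (reads of a gene relative to the library's total, scaled by the authors with TMM). Libraries of this kind read the 3′ end of each transcript, so the CPM of different genes can be set side by side without a correction for length. Hepatocyte markers were abundant in all 9 libraries. They summed to 48981 to 66513 CPM with Western diet plus alcohol and 64034 to 90096 CPM in controls. Of 16 markers 12 had a negative log2 fold change (median -0.22), and 2 fell (Alb and Apoa1, called in 8 and 11 of 22 alternative analyses). With edgeR 2 fell and with DESeq2 4, and 0 rose with either. Macrophage markers summed to 676 to 1118 against 220 to 361 CPM, and 12 of 14 rose. In whole tissue, fewer cells of a type and less RNA per cell cannot be told apart.

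The windows before the transcription starts of the members were taken from RefSeq (build GRCm38.p6), which held 9 of the 10; Cyp2d22 was the other. Only the last 150 bases before the start are printed, 5′ to 3′ on the gene's strand. In the Cyp1a pair, shown because both genes are targets of the aryl hydrocarbon receptor and differ in level, capitals mark GCGTG, the core of that receptor's site, and the TATAAA box.
Cyp1a1, chr9:57697463-57697612, plus strand: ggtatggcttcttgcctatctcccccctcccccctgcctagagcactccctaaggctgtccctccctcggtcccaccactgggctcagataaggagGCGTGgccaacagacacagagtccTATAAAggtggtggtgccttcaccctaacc
Cyp1a2, chr9:57683656-57683805, minus strand: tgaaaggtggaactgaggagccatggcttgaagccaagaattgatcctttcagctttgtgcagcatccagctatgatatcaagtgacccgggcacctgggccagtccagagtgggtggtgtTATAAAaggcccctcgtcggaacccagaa
GCGTG, searched on both strands of the 250 bases before the start, was in 1 of the 9 member windows, that of Cyp1a1, and in 28.2% of 32851 RefSeq promoter windows of the same length. TATAAA, searched on the gene strand, was in 5 of 9 member windows and in 7.59% of all windows. TTCNNNGAA, the STAT5 motif (both strands), was in 0 of 9 member windows and in 7.02% of all windows.

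Cyp2a22 and Cyp2a12 are neighbours on chromosome 7, separated in the annotation by the pseudogene Cyp2a21-ps. They are shown because their upstream windows are close copies, while only Cyp2a22 was called in the comparison below. Capitals mark bases without an identical partner in the alignment of the 2 windows, among them the ends that overhang.
Cyp2a22, chr7:26939387-26939536, minus strand: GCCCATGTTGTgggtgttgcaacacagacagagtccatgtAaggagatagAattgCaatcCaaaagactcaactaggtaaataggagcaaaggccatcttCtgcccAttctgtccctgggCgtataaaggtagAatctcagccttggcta
Cyp2a12, chr7:27028940-27029089, plus strand: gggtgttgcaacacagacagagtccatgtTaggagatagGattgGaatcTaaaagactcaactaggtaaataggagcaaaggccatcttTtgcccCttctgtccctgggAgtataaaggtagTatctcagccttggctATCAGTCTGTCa
Over the full 250 bases the identity of this pair was 82.8%, against 49.6% between Cyp2a5 and Cyp2a22 and 48.8% between Cyp2a5 and Cyp2a12.

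The Cyp2d windows are shown for the genes whose shares of Cyp2d transcripts differed between the groups (Cyp2d9, Cyp2d26 and Cyp2d40), with that of Cyp2d10, the close copy of Cyp2d9. Capitals mark TATAA and CAGAGGACAAAGGGCAACC, the longest run (19 bases) common to the windows of Cyp2d9, Cyp2d10 and Cyp2d40.
Cyp2d10, chr15:82407195-82407344, minus strand: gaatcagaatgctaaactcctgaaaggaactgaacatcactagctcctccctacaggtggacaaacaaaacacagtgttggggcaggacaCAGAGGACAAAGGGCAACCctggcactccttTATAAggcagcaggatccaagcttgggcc
Cyp2d9, chr15:82452227-82452376, plus strand: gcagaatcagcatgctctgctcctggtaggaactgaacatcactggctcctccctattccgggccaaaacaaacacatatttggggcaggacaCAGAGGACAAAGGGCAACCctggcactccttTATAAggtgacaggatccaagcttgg
Cyp2d40, chr15:82764123-82764272, minus strand: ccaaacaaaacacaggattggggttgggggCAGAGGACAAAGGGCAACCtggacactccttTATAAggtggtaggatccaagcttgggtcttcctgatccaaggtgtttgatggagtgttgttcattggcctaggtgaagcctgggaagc
Cyp2d26, chr15:82794246-82794395, minus strand: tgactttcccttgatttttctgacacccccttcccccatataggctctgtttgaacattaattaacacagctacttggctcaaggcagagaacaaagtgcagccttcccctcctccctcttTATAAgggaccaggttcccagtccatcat
Searched on both strands, this run was in 3 of the 9 member windows, those it was taken from, and in 3 (0.00913%) of all 32851 windows. The windows of Cyp2d9 and Cyp2d10 were 82.3% identical over 250 bases.

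The comparison asked how the liver levels of these genes differed between Western diet plus alcohol and control. Of the 10 members, 9 had a mean of at least 1 CPM over the 9 libraries and were tested, and Cyp1a1 did not. Among the 9, 1 was higher (Cyp2a22) and 2 were lower (Cyp1a2 and Cyp2d9) at an adjusted p under 0.05 (limma-trend on log2(CPM + 1), Benjamini-Hochberg over 14759 genes). Over all tested genes 2.29% were called, 1.61% higher and 0.678% lower. The same 3 members were the ones whose groups did not overlap, as was so for 5.34% of all tested genes. On the recovered reads 4 of the 9 were called with edgeR and with DESeq2, the same 3 and Cyp2d40 (2 higher, 2 lower), where edgeR called 2.13% of all tested genes (1.50% higher, 0.630% lower) and DESeq2 3.71% (2.52% higher, 1.19% lower). The median log2 fold change of the 9 tested members was 0.06, beside -0.0008 over all tested genes, and 4 of the 9 were negative.

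**Figure D1:**
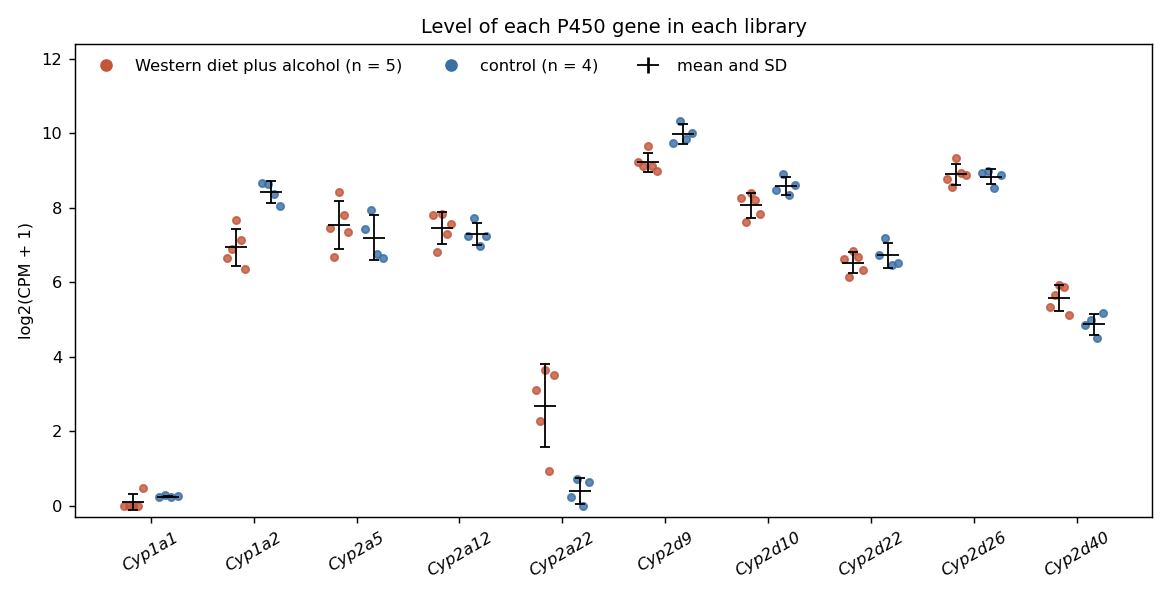
Level of each of the 10 genes as log2(CPM + 1) in every library (points), with the mean and SD of each group (5 libraries of Western diet plus alcohol, 4 of control). The groups stand apart for Cyp1a2, Cyp2a22 and Cyp2d9 and overlap for the other tested genes.

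In the Cyp1a subfamily the transcripts were almost wholly Cyp1a2, the P450 that oxidises caffeine and arylamines. Cyp1a2 stood at 99.99, 117, 203, 140.0 and 81.1 CPM in WD+alcohol 1 to 5 and at 404, 401, 328 and 262 CPM in controls 1 to 4. Every WD+alcohol library lay below every control, with WD+alcohol 3 the nearest to them. The group means were 128 ± 47.2 CPM (SD, n = 5) and 349 ± 68.0 CPM (SD, n = 4), so the WD+alcohol mean was 36.8% of the control mean. The log2 fold change was -1.48 ± 0.21 (SE; limma-trend adjusted p = 0.00210), and Cyp1a2 was called in all 22 alternative analyses (adjusted p 2.35e-08 to 0.0396).

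Cyp1a1, the most inducible gene of the aryl hydrocarbon receptor, was barely detected. Each of the 4 controls held 1 read, WD+alcohol 5 held 2 reads, and the other 4 WD+alcohol libraries held 0. All of these counts are under the floor of 3 reads, which was worth 0.455 to 0.809 CPM, so no fold is given. A difference in Cyp1a1 was not detectable at this depth. Cyp1b1, the third inducible gene of the receptor, averaged 35.3 ± 4.55 against 39.8 ± 4.52 CPM (log2 fold change -0.17, 95% interval -0.41 to 0.07; limma-trend adjusted p = 0.601; 0.07 with scaling on hepatocyte markers).

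Among the genes of the aryl hydrocarbon receptor pathway, 12 of 16 listed were tested and 0 were called with limma-trend, edgeR or DESeq2, while 1 was higher at an unadjusted p under 0.05, which 12.2% of all tested genes passed in either direction. The median log2 fold change of these 12 was 0.02. The receptor Ahr stood at a mean of 43.6 ± 7.18 CPM in the 5 WD+alcohol libraries and 46.1 ± 8.74 CPM in the 4 controls, a log2 fold change of -0.08. Its repressor Ahrr averaged 5.60 ± 1.30 against 5.49 ± 1.42 CPM. The target Tiparp, an ADP-ribosyltransferase, averaged 44.1 ± 5.75 against 47.7 ± 5.79 CPM, and Nqo1, a quinone reductase shared with the oxidative stress response, 12.8 ± 2.78 against 10.2 ± 3.09 CPM. Hsp90ab1, the chaperone that holds the receptor and the most abundant gene of the list, averaged 1408 ± 30.9 against 1393 ± 47.8 CPM (log2 fold change 0.02, and -0.005 without control 4).

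In the Cyp2a subfamily the abundant genes Cyp2a5 and Cyp2a12 were not called, and the rare gene Cyp2a22 rose. Cyp2a5, the coumarin hydroxylase, stood at 175, 101, 344, 222 and 163 CPM in WD+alcohol 1 to 5 and at 172, 244, 108 and 98.9 CPM in controls 1 to 4. The groups overlapped, and both were wide, with a coefficient of variation of 45.0% in the WD+alcohol group and 43.2% in controls. Its log2 fold change was 0.35 (95% interval -0.32 to 1.02; limma-trend adjusted p = 0.740). Cyp2a12, which hydroxylates testosterone and bile acids, stood at 223, 111, 229, 157 and 187 CPM against 149.9, 209, 125 and 151 CPM in controls. Its log2 fold change was 0.17 (95% interval -0.25 to 0.59; adjusted p = 0.810).

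Cyp2a22 was counted in 28, 25, 61, 6 and 52 reads in WD+alcohol 1 to 5 and in 1, 3, 0 and 3 reads in controls 1 to 4. In CPM these were 7.55, 3.82, 11.4, 0.909 and 10.4 against 0.165, 0.630, 0 and 0.568. WD+alcohol 4 lay far below the other 4 libraries of its group and just above the highest control, and every control was at or under the floor of 3 reads. The means were 6.83 ± 4.44 CPM (SD, n = 5) and 0.341 ± 0.307 CPM (SD, n = 4), and the log2 fold change was 2.30 ± 0.46 (SE; limma-trend adjusted p = 0.0176). Its mean over the 9 libraries, 3.94 CPM, passed the filter through the WD+alcohol group alone. Cyp2a22 was not called without WD+alcohol 5, control 1 or control 3 (adjusted p 0.0567, 0.0545 and 0.0537) or with robust limma-trend (0.0539), and it was not tested at a mean of at least 5 CPM. It was called with edgeR (0.0152) and DESeq2 (3.96e-04) on the recovered reads. Its log2 fold change was 3.37 with a pseudocount of 0.25 and 1.05 with one of 5, both called.

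The ratio of Cyp2a22 to Cyp2a12 within a library, on the log2(CPM + 1) scale, was -4.77 ± 0.932 (SD, n = 5) with Western diet plus alcohol and -6.90 ± 0.205 (SD, n = 4) in controls. With so few Cyp2a22 reads, its control side was set by the pseudocount and by Cyp2a12, so the ratio restates the difference in Cyp2a22 and adds no support to it. The difference of 2.13 was 3.20 with a pseudocount of 0.25 and 0.888 with one of 5. The ratio of Cyp2a5 to Cyp2a12 differed by 0.18 (exact permutation p = 0.508), with overlapping groups. Cyp2a5 made up 43.2% to 58.9% of the summed CPM of the 3 Cyp2a members in the WD+alcohol libraries and 39.5% to 53.8% in controls.

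Cyp2a4, the female-biased steroid hydroxylase and closest copy of Cyp2a5, stood at 15.9 CPM (59 reads) in WD+alcohol 1 and at 0 to 1.48 CPM in the other 8 libraries. Its log2 fold change of 1.06 was not called (limma-trend adjusted p = 0.515). WD+alcohol 1 did not stand out in the same way for Cyp2a5 or Cyp2a22.

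The Cyp2d subfamily held the most abundant member, Cyp2d9, and it fell. Cyp2d9 stood at 598, 554, 812, 554 and 502 CPM in WD+alcohol 1 to 5 and at 851, 1296, 927 and 1033 CPM in controls 1 to 4. The groups did not overlap, although WD+alcohol 3 at 812 CPM came close to control 1 at 851 CPM. The means were 604 ± 121 CPM (SD, n = 5) and 1027 ± 194 CPM (SD, n = 4), or 58.8% of control, with a log2 fold change of -0.77 ± 0.14 (SE; limma-trend adjusted p = 0.0111). It was called in 21 of 22 alternatives.

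Cyp2d10, its close neighbour, pointed the same way without being called. It stood at 308, 196, 337, 296 and 227 CPM with Western diet plus alcohol and at 358, 483, 322 and 391 CPM in controls. Only WD+alcohol 3 reached into the control range. The log2 fold change was -0.52 (95% interval -0.86 to -0.18; limma-trend adjusted p = 0.120), and it was called in 0 of 22 alternatives (adjusted p 0.0600 to 0.609).

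Cyp2d26, the second most abundant member, showed overlapping groups at 437, 375, 649.6, 490.4 and 472 CPM against 493, 505, 372 and 472 CPM in controls. Its log2 fold change was 0.06 (95% interval -0.24 to 0.36; limma-trend adjusted p = 0.921), and -0.05 without WD+alcohol 3 and -0.04 without control 3. Cyp2d22, often named as the mouse gene closest in function to CYP2D6, stood at 97.6, 69.7, 113, 102 and 79.1 CPM against 105, 146, 86.7 and 90.2 CPM. Its log2 fold change was -0.20 (95% interval -0.55 to 0.15; adjusted p = 0.706) and 0.04 with scaling on hepatocyte markers.

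Cyp2d40, the least abundant Cyp2d member, was on the other side. It stood at 39.1, 49.5, 60.2, 58.0 and 34.0 CPM in WD+alcohol 1 to 5 and at 27.8, 30.7, 21.5 and 34.9 CPM in controls 1 to 4. Of the 5 WD+alcohol libraries, 4 lay above the highest control, and WD+alcohol 5 lay just below it. The means were 48.2 ± 11.5 CPM (SD, n = 5) and 28.7 ± 5.59 CPM (SD, n = 4). The log2 fold change of 0.71 ± 0.17 (SE) missed the threshold (limma-trend adjusted p = 0.0511). It was called in 8 of 22 alternatives, among them edgeR (0.0492), DESeq2 (0.00445) and all libraries rescaled to one total (0.0191). It was also called without WD+alcohol 1 (0.0488), WD+alcohol 5 (0.0252) or control 4 (0.0455), while its adjusted p was 0.137 without control 3.

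The make-up of Cyp2d transcripts differed between the groups. Cyp2d9 made up 36.9% to 44.6% of the summed CPM of the 5 Cyp2d members in the WD+alcohol libraries and 46.4% to 53.6% in controls, with no overlap. Cyp2d26 made up 29.5% to 35.9% against 20.5% to 26.9%, and Cyp2d40 2.59% to 3.98% against 1.25% to 1.73%, also with no overlap. Shares add up to a fixed total, so a lower share of Cyp2d9 raises the shares of the others. The level of Cyp2d26 itself was not called (log2 fold change 0.06; limma-trend adjusted p = 0.921), so its share is no separate result. For Cyp2d10 (15.7% to 20.8% against 18.6% to 19.6%) and Cyp2d22 the shares overlapped. The summed level of the 5 genes ranged from 1244 to 1972 CPM against 1729 to 2460 CPM.

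**Figure D2:**
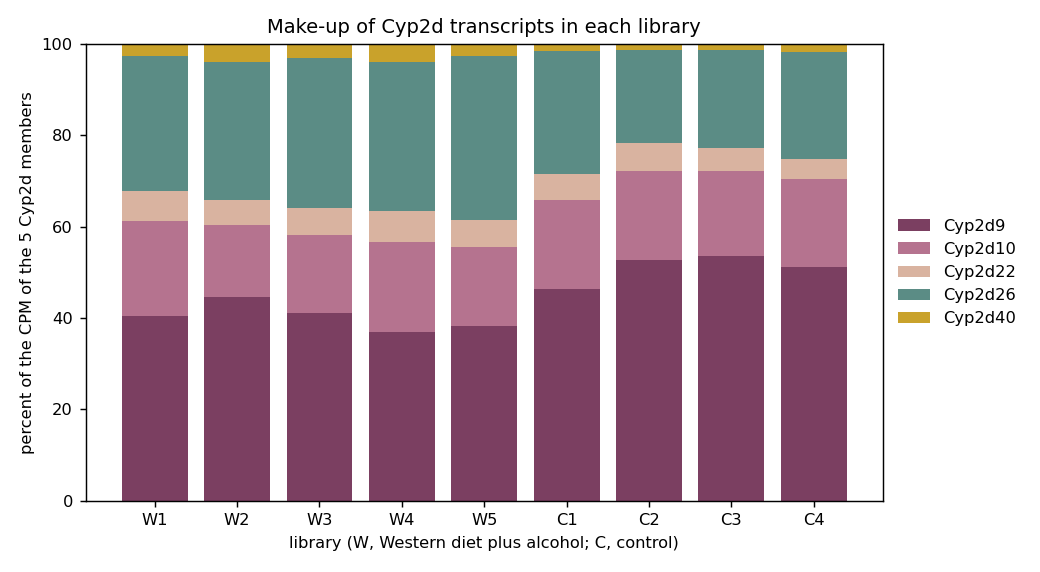
Share of each Cyp2d member in the summed CPM of the 5 members, as stacked bars for each library (W, Western diet plus alcohol; C, control). The Cyp2d9 band is narrower and the Cyp2d26 and Cyp2d40 bands are wider in every WD+alcohol library than in any control.

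Ratios between pairs of members were used to ask whether 2 members differed in their response. They rest on the same values as the tests of each gene and are no independent support for the fall of Cyp2d9. The log2 ratio of Cyp2d9 to Cyp2d26 was 0.451, 0.564, 0.321, 0.174 and 0.0905 in WD+alcohol 1 to 5 and 0.787, 1.36, 1.32 and 1.13 in controls 1 to 4. It fell by 0.83 (exact permutation test, two-sided, p = 0.00794, the smallest that 126 permutations can give; adjusted p = 0.0317 over 6 ratios). The ratio of Cyp2d10 to Cyp2d26 fell by 0.58 (exact permutation p = 0.0159; adjusted p = 0.0317), also with no overlap. Both differences kept their sign with any 1 library left out. They were not called without control 2, control 3 or any 1 of the WD+alcohol libraries (exact permutation, adjusted p 0.0536 to 0.0714). With fewer libraries the smallest p that the permutations can give is larger, so a lost call alone does not show a weaker difference. That limit is the same whichever control is left out, and both calls held without control 1 or control 4. Without control 2 or control 3 the difference was -0.76 or -0.77 for Cyp2d9 to Cyp2d26. For Cyp2d10 to Cyp2d26 it was then -0.52 or -0.57. The ratio of Cyp2d22 to Cyp2d26 (difference -0.26) and that of Cyp2d9 to Cyp2d10 (difference -0.25) each had an exact permutation p of 0.103, with overlapping groups. The pairs were chosen with earlier results of these data known.

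**Figure D3:**
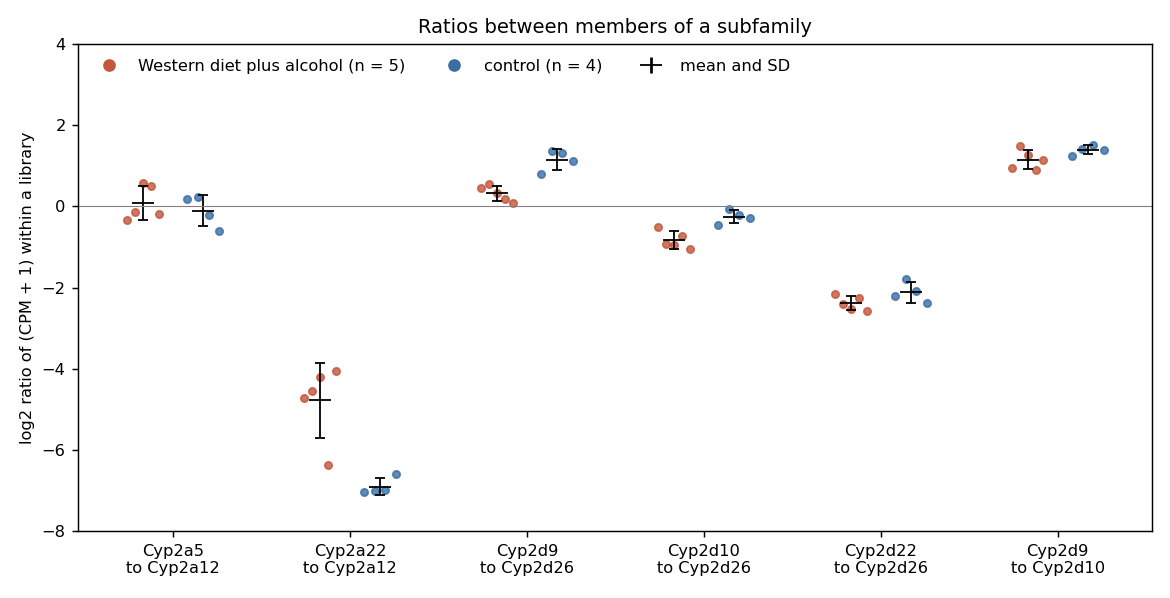
Log2 ratio of (CPM + 1) between 2 members within each library (points), with the mean and SD of each group, for the 6 ratios tested. The groups do not overlap for Cyp2a22 to Cyp2a12, Cyp2d9 to Cyp2d26 and Cyp2d10 to Cyp2d26, and overlap for the other 3.

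By order along chromosome 15 in the RefSeq annotation, Cyp2d22, Cyp2d10 and Cyp2d9 lie on one side of the cluster and Cyp2d40 and Cyp2d26 on the other, with pseudogenes between them. Tested symbols from Cyp2d22 to Cyp2d37-ps all had a negative log2 fold change, and the last 2, Cyp2d40 and Cyp2d26, a positive one. The 95% intervals held both signs for Cyp2d22 (-0.55 to 0.15), Cyp2d37-ps (-0.57 to 0.31) and Cyp2d26 (-0.24 to 0.36). Of the tested Cyp2d symbols only Cyp2d9 was called by limma-trend. The transcribed pseudogene Cyp2d13, next in order after Cyp2d9 among the tested symbols, averaged 10.5 ± 4.62 against 21.8 ± 9.28 CPM (log2 fold change -0.99, 95% interval -1.72 to -0.25; limma-trend adjusted p = 0.202). Cyp2d36-ps, picked after its values were seen, averaged 1.40 ± 0.407 against 3.34 ± 1.38 CPM (-0.81; adjusted p = 0.153). Cyp2d37-ps ranged from 22.8 to 39.5 CPM against 22.4 to 48.5 CPM (log2 fold change -0.13; adjusted p = 0.870; 0.11 with scaling on hepatocyte markers and 0.06 without control 2). Cyp2d11, Cyp2d12, Cyp2d34, Cyp2d38-ps and Cyp2d41-ps had at most 8 reads in any library and were not tested.

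**Figure D4:**
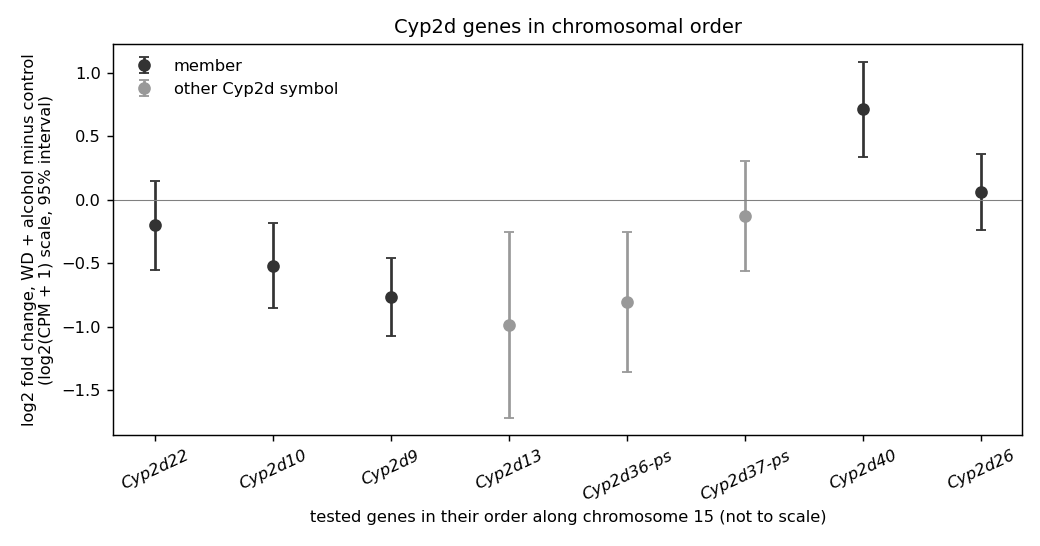
Log2 fold change (Western diet plus alcohol minus control, log2(CPM + 1) scale) with its 95% interval for the 8 tested Cyp2d symbols, in their order along chromosome 15. Values are -0.20 at Cyp2d22, lowest at Cyp2d13 (-0.99), -0.13 at Cyp2d37-ps, and positive at Cyp2d40 (0.71) and Cyp2d26 (0.06).

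Since the members are close copies, the 3′ ends that such libraries read were compared in GENCODE M21 transcripts. The longest coding transcript of each member was taken, and the 251 windows of 50 bases in its last 300 bases were searched. For Cyp1a1, Cyp1a2, Cyp2a5, Cyp2a22 and Cyp2d22, 0 windows occurred in a transcript of another gene. For Cyp2a12 26 windows (10.4%) also occurred in Cyp2a22. The share was 11.2% for Cyp2d9 and for Cyp2d40, 13.5% for Cyp2d10 and 26.7% for Cyp2d26, in each case with other Cyp2d symbols. Cyp2d22 was among these symbols in each case, so its 0 covers only the end of its longest coding transcript. Among the Cyp2d members the last 300 bases were most alike in Cyp2d26 and Cyp2d40 (85.9% identity). The sources used here do not give how reads that match several copies were counted, so the values of Cyp2a12, Cyp2d9, Cyp2d10, Cyp2d26 and Cyp2d40, and of the copies they share windows with, are uncertain to that extent.

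In order of mean level in controls, Cyp2d9 came first at 1027 CPM, followed by Cyp2d26 (460.5), Cyp2d10 (388), Cyp1a2 (349), Cyp2a12 (159), Cyp2a5 (156), Cyp2d22 (107), Cyp2d40 (28.7), Cyp2a22 (0.341) and Cyp1a1 (0.185). The ranges of neighbours in this order overlapped for Cyp2d26 and Cyp2d10, Cyp2d10 and Cyp1a2, Cyp2a12 and Cyp2a5, Cyp2a5 and Cyp2d22, and Cyp2a22 and Cyp1a1. With Western diet plus alcohol Cyp1a2 came sixth, behind both abundant Cyp2a genes, and the ranges of Cyp2d9 and Cyp2d26 overlapped, although Cyp2d9 was the higher of the pair in 5 of 5 libraries. WD+alcohol 3 held the highest level of its group for all 9 tested members, and control 2 that of its group for 7 of 9. These libraries also had the highest hepatocyte marker factor of their groups (1.07 and 1.22), so this order is not particular to the P450 genes.

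The genes whose levels ran closest to a member over the 9 libraries were found by the root mean square difference of centred log2(CPM + 1) values. Tested genes averaging 10 CPM or more were searched, leaving out clone-like names (Gm followed by digits, or Rik). A gene near a member whose groups stand apart will differ between the groups too, so the values of such genes describe the choice and support nothing. Nearest to Cyp1a2 were Cyp2c29 (0.204), another P450, Cyp2c50 (0.241) and Hectd2os (0.245), against a spread of Cyp1a2 itself of 0.827 on this scale. Cyp2c29 stood at 304 ± 124 CPM with Western diet plus alcohol and 941 ± 162 CPM in controls. Nearest to Cyp2d9 were Alb (0.140), the albumin gene, Lifr (0.171), a cytokine receptor, and Apoa1 (0.191), an apolipoprotein, against a spread of 0.446. Alb averaged 18876 ± 3597 against 33497 ± 6566 CPM (log2 fold change -0.83) and Lifr 51.8 ± 6.96 against 99.9 ± 8.96 CPM (-0.94). With all libraries scaled on 16 hepatocyte markers the log2 fold changes of Cyp2d9 and Cyp1a2 were -0.52 (adjusted p = 0.0167) and -1.24 (6.32e-05), while the median over all genes moved to 0.22. Nearest to Cyp2a22 were Acot2 (0.591), Apoa4 (0.620) and Vnn1 (0.651), against a spread of 1.38. Nearest to Cyp2a5, whose spread was 0.578, were Hsd3b3 (0.236), Ngef (0.264) and Lhfpl2 (0.268), none of them called by limma-trend (unadjusted p above 0.05 for each).

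**Figure D5:**
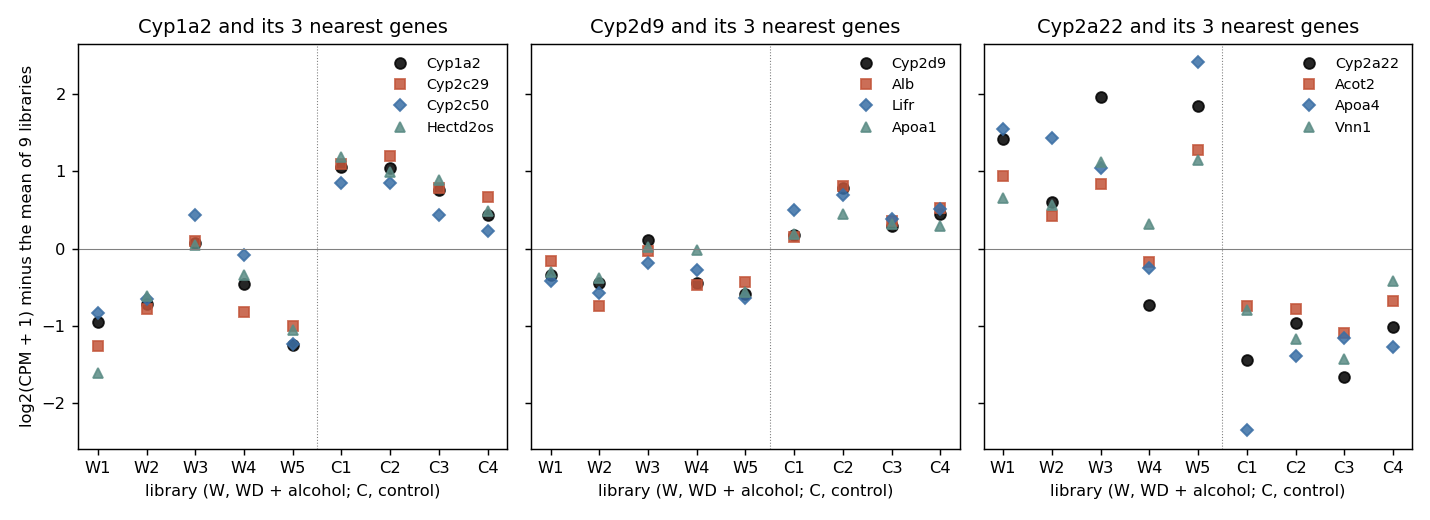
Log2(CPM + 1) minus the mean of the 9 libraries for Cyp1a2, Cyp2d9 and Cyp2a22 (black) and the 3 genes nearest to each, by library (W1 to W5, Western diet plus alcohol; C1 to C4, control). All genes nearest to Cyp2d9 lie above 0 in every control library.

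Regulators of hepatic P450 genes were not called. Of 17 receptors and factors tested, 0 were called with limma-trend, edgeR or DESeq2, with 1 higher and 1 lower at an unadjusted p under 0.05, and the median log2 fold change was -0.02. The constitutive androstane receptor Nr1i3 stood at 97.5 ± 34.3 CPM with Western diet plus alcohol and 103 ± 35.6 CPM in controls. Hnf4a, a nuclear receptor that maintains hepatocyte genes, averaged 221 ± 44.7 against 282 ± 58.6 CPM (log2 fold change -0.35; adjusted p = 0.389). Of 10 tested genes of the growth hormone receptor and STAT5 axis, 0 were called with any of the 3 tools (1 higher and 1 lower at an unadjusted p under 0.05). Igf1, the hormone made in response to it, averaged 530.4 ± 114 against 685 ± 155 CPM (-0.37; adjusted p = 0.375), and Ghr, the receptor, 237 ± 41.5 against 272 ± 41.5 CPM.

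Of 17 other male-biased hepatocyte genes tested, 13 fell and 0 rose by limma-trend (median log2 fold change -1.71), but the list was drawn up with falls in these data known and is no independent support. Hsd3b5, a steroid dehydrogenase, averaged 1.78 ± 2.04 against 80.2 ± 43.3 CPM, and Slco1a1, an anion transporter, 11.6 ± 6.81 against 124 ± 29.6 CPM. Of 16 female-biased genes 6 were tested and 2 rose, Cyp2b9 (13.9 ± 8.08 against 0.341 ± 0.551 CPM) and Fmo2 (17.9 ± 7.06 against 5.80 ± 2.59 CPM). Of the tested genes, Cyp2b9, Cyp2a4 and Sult1e1 passed the filter through the WD+alcohol group alone (control means 0.341, 0.510 and 0.317 CPM). The count of 2 is therefore no support for a rise of the list. Fmo2 was not called without WD+alcohol 3, WD+alcohol 5, control 1 or control 3.

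Of 7 electron transfer genes 0 were called with limma-trend or edgeR and 1 was lower with DESeq2, with 2 higher and 1 lower at an unadjusted p under 0.05 (12.2% of all tested genes). With scaling on hepatocyte markers, which called 841 genes higher and 82 lower over all genes, 3 were higher. The oxidoreductase Por stood at 352 ± 83.8 CPM with Western diet plus alcohol and 247 ± 71.1 CPM in controls, a log2 fold change of 0.53 (adjusted p = 0.259), and cytochrome b5 (Cyb5a) 1168 ± 185 against 994 ± 56.4 CPM. Cyb5b, the outer mitochondrial form of cytochrome b5, pointed the other way at 149.9 ± 15.1 against 204 ± 34.8 CPM (log2 fold change -0.43; adjusted p = 0.0678). Of 12 genes of haem synthesis and breakdown 2 rose, the biliverdin reductase Blvrb (132 ± 18.5 against 91.3 ± 7.17 CPM) and the synthesis enzyme Uros (7.10 ± 1.87 against 3.37 ± 0.627 CPM). With edgeR 2 of the list were higher and with DESeq2 3, and 0 were lower with either. At an unadjusted p under 0.05, 4 were higher and 1 lower. Leaving out WD+alcohol 5 or control 4 ended the call of Blvrb, and so did, for Uros, leaving out WD+alcohol 1, WD+alcohol 3, control 1 or control 3. Alas1, the first enzyme of haem synthesis, stood at 276 ± 47.0 CPM beside 226 ± 138 CPM in controls (log2 fold change 0.45; limma-trend adjusted p = 0.572).

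Cyp1a2 and Cyp2a5 are genes of pericentral hepatocytes, so other genes of that zone were read beside them. Of 19 tested pericentral markers 1 rose (Glul, glutamine synthetase, at 811 ± 147 against 513 ± 75.7 CPM) and 1 fell (Cyp27a1, a sterol hydroxylase, at 261 ± 50.4 against 469 ± 102 CPM), with a median log2 fold change of 0.01. The Glul call was lost when WD+alcohol 5 or control 1 was left out. Cyp2e1, the ethanol-oxidising P450 of the same zone, averaged 2707 ± 703 against 2487 ± 238 CPM (log2 fold change 0.09; limma-trend adjusted p = 0.891). Of 16 periportal markers 1 fell, Pck1 (935 ± 115 against 1914 ± 544 CPM), and 14 were negative, with a median of -0.52. DESeq2 called 6 lower and 1 higher, edgeR 1 lower and 0 higher, and 11 were lower and 2 higher at an unadjusted p under 0.05. The part of hepatocyte, macrophage or zone marker differences in the levels of the P450 genes was not tested.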

How the data were processed

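Per the labels' protocols, RNA from 5 WD+alcohol and 4 control livers was isolated with Trizol and sequenced as Collibri 3′ mRNA libraries. Per the submitters' processing notes, the authors used Trim Galore 0.6.0, cutadapt 1.18, STAR, build GRCm39, HTSeq 0.11.0 and edgeR 3.28.1. The STAR version, the strand setting and the handling of multimapping reads are not given in the sources used here. The deposited values are a signal, CPM scaled by TMM by the authors. All positive values (100%, relative tolerance 1e-06) were whole multiples of their column's smallest value, which gave back the reads. At 3635860 to 6643645 reads a library, 3 reads were worth 0.455 to 0.809 CPM, for counting error only.

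Groups came from the titles. The labels name no batch and do not say that each library is a separate mouse, so p-values measure the spread between these libraries. Log2(CPM + 1) was tested with limma-trend (limma 3.58.1, R 4.3.3) over the 14759 genes of mean at least 1 CPM, adjusted by Benjamini-Hochberg, called under 0.05. Fold changes on this scale understate changes of low genes. Ratios were tested by exact permutation. The members and lists were chosen with earlier results of these data known. Named genes were all members, other Cyp1, Cyp2a and Cyp2d symbols with reads, called list genes (at most 4 a list, otherwise the most abundant), and the 3 nearest genes of called or most abundant members. Further list genes were named by role after their values were seen. Alternatives were pseudocounts of 0.25 and 5, no filter or 5 CPM, other scalings (1 total, median of ratios, quantile), robust fitting, array weights, a replicate block, each library left out in turn, and count models on the recovered reads (edgeR 4.0.16, DESeq2 1.42.0). Scaling on hepatocyte markers was added after seeing the data. The limma analysis was tested on simulated data.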

Additional observations from a re-analysis of the deposited data

Results flagged for a closer look

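In 110 groups of 4 or 5 libraries examined for a value far from the rest, 10 were marked, and chance marks about 1 in 20. Cyp2a4 stood at 15.9 CPM in WD+alcohol 1, against 0.563 to 1.40 CPM in the other 4 libraries of its group. Cyp2c29 stood at 519 CPM in WD+alcohol 3, against 202 to 283 CPM in the others. The log2 ratio of Cyp2a22 to Cyp2a12 was -6.37 in WD+alcohol 4, against -4.71 to -4.04 in the others, and -6.60 in control 4, against -7.02 to -6.98 in the other controls. The remaining 6 marks rest on 0 to 3 reads: Cyp1a1 at 0.400 CPM in WD+alcohol 5, Cyp2d11 at 0.455 CPM in WD+alcohol 4 and 0.210 CPM in control 2, Cyp2d34 at 0.153 CPM in WD+alcohol 2, Cyp2a21-ps at 0.189 CPM in control 4, and Cyp2d38-ps at 0 CPM in control 2.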

How the results depend on the processing

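The count of 3 members called ranged from 2 to 4 in 21 of 22 alternatives, and the 2 lower members were called in each of these 21. Over all genes 338 were called, but 545 with DESeq2 and 923 (841 higher, 82 lower) with scaling on hepatocyte markers, and from 201 (without WD+alcohol 5) to 387 with 1 library left out. With the replicate number as a block, 112 genes and 1 member (Cyp1a2, adjusted p = 0.0271) were called, Cyp2d9 and Cyp2a22 were not (0.151 and 0.138), and WD+alcohol 5, which has no partner, drops out of the fit. Deviations of same-numbered libraries correlated at -0.31 to -0.0075, which gives no sign of a pairing by number but cannot exclude one.

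With 1 library left out, the difference in log2 ratio ran from 1.94 to 2.53 for Cyp2a22 to Cyp2a12, from -0.947 to -0.756 for Cyp2d9 to Cyp2d26 and from -0.663 to -0.518 for Cyp2d10 to Cyp2d26. Their adjusted p then ranged from 0.0357 to 0.0714. The 3 ratios were called without control 1 or control 4 (0.0357 each). They were not called without control 2 or control 3 (0.0536 to 0.0714), and were at 0.0571 without any 1 WD+alcohol library. The smallest p of the exact permutation test rises as libraries are left out, so a lost call alone does not show a weaker difference. That rise is the same for each control, so it does not by itself account for the calls lost without control 2 or control 3. The difference was then -0.756 or -0.771 for Cyp2d9 to Cyp2d26 and -0.518 or -0.567 for Cyp2d10 to Cyp2d26. The Cyp2a22 ratio differed by 3.20 with a pseudocount of 0.25 and 0.888 with one of 5. Uncalled genes changed sign: Hsd3b3 at 0.0028 with all libraries rescaled to one total, 0.069 with array weights, 0.19 with scaling on hepatocyte markers and up to 0.22 with 1 library left out (lowest -0.22), and Ngef down to -0.12 (highest 0.33). Scaling on hepatocyte markers gave 0.040 for Cyp2d22, 0.068 for Cyp1b1 and 0.11 for Cyp2d37-ps. With 1 library left out the range was -0.052 to 0.15 for Cyp2d26, -0.30 to 0.063 for Cyp2d37-ps and -0.0054 to 0.033 for Hsp90ab1. Counts of 3 reads or fewer limit Cyp1a1 and the controls of Cyp2a22.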
